A study of Homo sapiens with 6 samples.

Results

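The genes described here are 10 chemokine receptors that guide B cells and plasma cells, CXCR5, CXCR3, CCR1, CCR2, CCR6, CCR7, CCR9, CCR10, CCRL2 and CX3CR1. They were chosen with earlier results of these data known. They were taken by name, as every probe set to which the platform annotation gives one of these symbols and no other. This left 15 of 41091 probe sets with a single symbol. They were read in mutated BCWM1 cells (mutated 1 to 3) and in parental BCWM1 cells (parental 1 to 3), with 3 samples in each group. BCWM1 is an established human line of Waldenström macroglobulinemia, a lymphoma of IgM-secreting B cells and plasma cells, and the series title names the mutation as C1013G in CXCR4. No treatment or time is labelled for either group. The sources used here do not say how the mutated cells were made, whether they are 1 clone or whether parental cells carried an empty vector. Nor do they call the samples of a group separate cultures, so a p-value here covers the spread among these samples alone, which may be technical.

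A chemokine receptor is a cell surface protein that couples to inhibitory G proteins and turns a gradient of its chemokine into directed movement and integrin activation. In B cells CXCR5 leads into the follicle and CCR7 to the T cell zone of the lymph node. CCR6, CCR9 and CCR10 serve traffic to mucosal tissue and CXCR3 to inflamed tissue. CCR1, CCR2 and CX3CR1 are best known from monocytes, and CCRL2 is an atypical receptor that binds the attractant chemerin without signalling through G proteins.

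Values are the authors' probe set intensities on a linear scale. Changes are mutated minus parental on the scale log2(intensity + 16), which understates the change of a dim gene, and a probe set was tested if its mean over the 6 samples was above the lowest 40%, a limit near an intensity of 18.0. Of the 15 receptor probe sets, 9 passed that limit and stand for 7 of the 10 genes. The other 6 cover CCR2, CCRL2 and CX3CR1, and the second probe set of CXCR5. Of the 9 tested, 6 were lower in mutated cells, 2 were higher and 1 did not pass (limma, adjusted p under the threshold of 0.05, with Benjamini-Hochberg adjustment over every tested probe set). Among all 32768 tested probe sets 16.6% were lower and 30.9% were higher. The median log2 change was −0.46 over the 9 receptor probe sets and 0.06 over all tested probe sets. The groups did not overlap in 8 of the 9, against 57.8% of all tested probe sets. Both counts leave out the dim probe sets. The counts and the median include the tested CXCR5 probe set. It passed the filter through its parental values alone, so its place among the tested already implies a fall. CCR1 and CXCR3 each count with 2 probe sets. With 1 probe set for each gene, the one with the highest mean, 4 of 7 genes were lower, 2 were higher and 1 did not pass. Among all 13644 tested genes 18.9% were lower and 30.1% were higher. The CXCR5 limit holds for the gene count too. Intensities of different probe sets do not rank the receptors by abundance, since each probe set binds with its own strength.

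**Figure D1:**
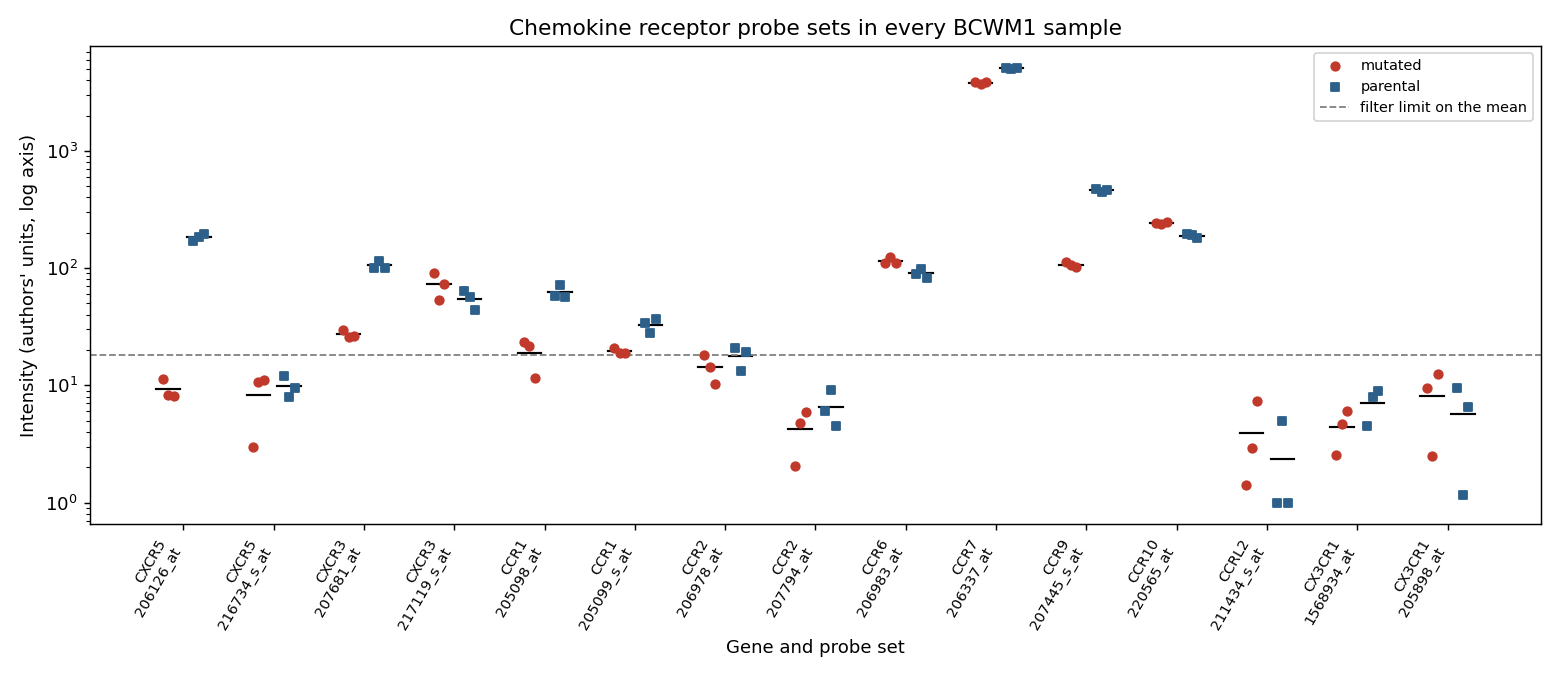
Intensity (log axis) of the 15 receptor probe sets in each of the 3 mutated and 3 parental samples, with a bar at each group mean and a dashed line near the filter limit of 18.0. CXCR5 (206126_at) and CCR9 show the widest gaps between the groups, and the probe sets of CCR2, CCRL2 and CX3CR1 lie at 20.7 or below in every sample.

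The array medians were 31.42, 30.93 and 31.83 in mutated and 29.13, 28.46 and 28.99 in parental cells. Every mutated median was thus above every parental one, and the counts of calls in each direction depend on how the arrays are scaled. All 7 measured B lineage markers (MS4A1, CD79A, CD79B, PAX5, BLNK, CD22 and CD74) passed the filter, with summed intensities of 35018 to 36236 in mutated and 34597 to 35829 in parental cells. Within that sum CD79A (log2 change 0.23) and CD79B (0.63) were higher and CD22 (−0.41) was lower. MS4A1, PAX5, BLNK and CD74 did not pass. The sum over 6 plasma cell markers was 9838 to 10736 in mutated and 12869 to 13463 in parental cells. Most of that fall came from TNFRSF17, which averaged 911 in mutated and 3417 in parental cells. SDC1 and PRDM1 were lower too, MZB1 was higher (log2 change 0.48), and IRF4 and XBP1 did not pass. Of 7 T cell markers 2 passed the filter (CD2 and TRAT1), with a list sum of 132 to 154 in mutated and 79.0 to 90.8 in parental cells. TRAT1 averaged 59.1 in mutated and 5.4 in parental cells and passed the filter through its mutated values alone. CD2 did not pass the threshold. Of 7 monocyte markers 4 passed, with a sum of 2778 to 2888 in mutated and 751 to 790 in parental cells. S100A9 averaged 2734 ± 64.4 in mutated and 674 ± 26.7 in parental cells (SD, n = 3 each), a log2 change of 1.99 (limma, adjusted p = 1.1e-06), while CSF1R (−0.12), S100A8 (−0.30) and FCN1 (−0.12) did not pass. The other 3 of the list, CD14, LYZ and CD163, were under the filter limit, at 9.06 or below in every sample. The sum over 5 NK cell markers was 156 to 188 in mutated and 224 to 257 in parental cells, that over 3 granulocyte markers 49.3 to 57.8 in mutated and 62.8 to 64.9 in parental cells, and that over 4 markers of fibroblasts and endothelium 999 to 1048 in mutated and 1012 to 1095 in parental cells. In these lists KLRF1 (−1.31), CSF3R (−0.32) and COL1A1 (−0.67) were lower and PECAM1 (0.72) was higher, while the other tested ones did not pass. The part of these markers in the receptor results was not tested. Whether fewer cells carry a receptor mRNA or each cell carries less cannot be told apart in bulk RNA.

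CXCR5, the receptor of the chemokine CXCL13 and the classical follicle-homing receptor of B cells, had the widest change of the receptor probe sets. Its probe set 206126_at read 11.4, 8.24 and 8.16 in mutated cells, against 169.53, 184.98 and 195.09 in parental cells. Every mutated sample was below the filter limit and every parental sample was far above it. The log2 change was −2.98 (SE 0.0762; 95% confidence interval −3.16 to −2.80; limma, adjusted p = 1.1e-06), and 0.317% of all tested probe sets changed as much in either direction. This probe set passed the filter through its parental values alone, so its presence among the tested probe sets already implies a difference. The second CXCR5 probe set, 216734_s_at, was dim in both groups, at 2.99, 10.68 and 11.03 in mutated and 11.93, 7.94 and 9.44 in parental cells. It gave a log2 difference of −0.10 with a 95% interval from −0.47 to 0.26 in the fit without the filter and lay under the filter limit in every sample. The size on the first probe set depends on the pseudocount, with log2 changes of −4.18 at a pseudocount of 1 and −1.75 at 64.

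CCR9, the receptor of CCL25 that directs lymphocytes to the small intestine, has 1 probe set, 207445_s_at. It read 112.02, 106.63 and 102.89 in mutated cells, against 470.41, 444.66 and 462.79 in parental cells. The highest mutated value was far below the lowest parental value. The log2 change was −1.95 (SE 0.0524; limma, adjusted p = 1.3e-06), a change that 1.15% of tested probe sets reached. Both groups stood well above the filter limit.

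CXCR3, the receptor of the interferon-induced chemokines CXCL9, CXCL10 and CXCL11, is found on memory B cells and plasmablasts. Its probe set 207681_at read 29.38, 25.84 and 26.55 in mutated cells, against 100.97, 113.78 and 100.81 in parental cells. The groups were far apart, with a log2 change of −1.49 (SE 0.0644; limma, adjusted p = 9.4e-06). The other probe set, 217119_s_at, did not show this. It read 90.49, 53.77 and 73.4 in mutated cells, against 63.61, 56.12 and 44.23 in parental cells. Here the groups overlapped, and the log2 difference was 0.31 (95% interval −0.10 to 0.73; limma, adjusted p = 0.18). The SD of this probe set among the mutated samples was 18.4, against 1.87 for 207681_at.

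The 2 CXCR3 probe sets gave changes that differed by −1.80 on the log2 scale. The log2 ratio of the first to the second was −1.23 to −0.74 in mutated and 0.56 to 0.96 in parental cells, without overlap (exact two-sided permutation test over samples, p = 0.1, the smallest that 3 against 3 allows, n = 3). Which of them represents the gene decides the reading. Probe set 217119_s_at had the higher mean on the log2(intensity + 16) scale, by which a gene is represented here, and by it CXCR3 did not pass. As the mean of both, CXCR3 was lower, with a log2 change of −0.59 (limma, adjusted p = 0.0041). When mutated replicate 1, 2 or 3 was left out, 207681_at had the higher mean and the count of receptor genes that were lower was 5, against 4 with all samples. Which transcripts each probe set detects was not analysed here.

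CCR1, a receptor of CCL3 and CCL5, was lower in mutated cells on both of its probe sets. Probe set 205098_at read 23.21, 21.65 and 11.57 in mutated cells, against 57.88, 71.15 and 57.13 in parental cells, a log2 change of −1.18 (SE 0.147; limma, adjusted p = 9.1e-04). Probe set 205099_s_at read 20.75, 19.02 and 18.7 in mutated cells, against 34.14, 27.94 and 36.83 in parental cells, a log2 change of −0.46 (SE 0.0778; limma, adjusted p = 0.0033). The groups did not overlap on either, and mutated values lay near the filter limit on both. The changes differed by −0.72 on the log2 scale (exact two-sided permutation test over samples, p = 0.1, the smallest possible with n = 3 each). CCR1 is also a monocyte gene. Of the monocyte markers given above, S100A9 was higher in mutated cells, while CSF1R, S100A8 and FCN1 did not pass. The part of these markers in the CCR1 result was not tested.

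CCR7, the receptor of CCL19 and CCL21 that retains lymphocytes in the T cell zone, was bright in every sample. It read 3835.5, 3681.77 and 3883.17 in mutated cells, against 5112.27, 4974.18 and 5115.85 in parental cells. The fall was small but wider than the spread, with a log2 change of −0.41 (SE 0.0475; limma, adjusted p = 6.4e-04). A change of this size or larger was seen in 25% of all tested probe sets.

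CCR10 and CCR6 were higher in mutated cells. CCR10, the receptor of CCL27 and CCL28 on antibody-secreting cells bound for mucosa, read 241.6, 239.7 and 248.19 in mutated cells, against 194.06, 192.73 and 180.42 in parental cells. The log2 change was 0.34 (SE 0.0503; limma, adjusted p = 0.0019), and the groups did not overlap. CCR6, the receptor of CCL20, read 111.5, 124.38 and 110.05 in mutated cells, against 89.19, 99.01 and 82.59 in parental cells. Its log2 change was 0.31 (SE 0.0764; limma, adjusted p = 0.016). The CCR6 call was lost with quantile normalization (log2 change 0.11, adjusted p = 0.27) and with median centring of the arrays (0.23, adjusted p = 0.061). It was also lost without mutated replicate 2 (limma, adjusted p = 0.0512) and without parental replicate 1 (0.0501). CCR10 kept its call under these settings, at 0.20 with quantile normalization. Changes of this size were common: 32.6% of tested probe sets changed at least as much as CCR10 and 36.9% as much as CCR6.

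**Figure D2:**
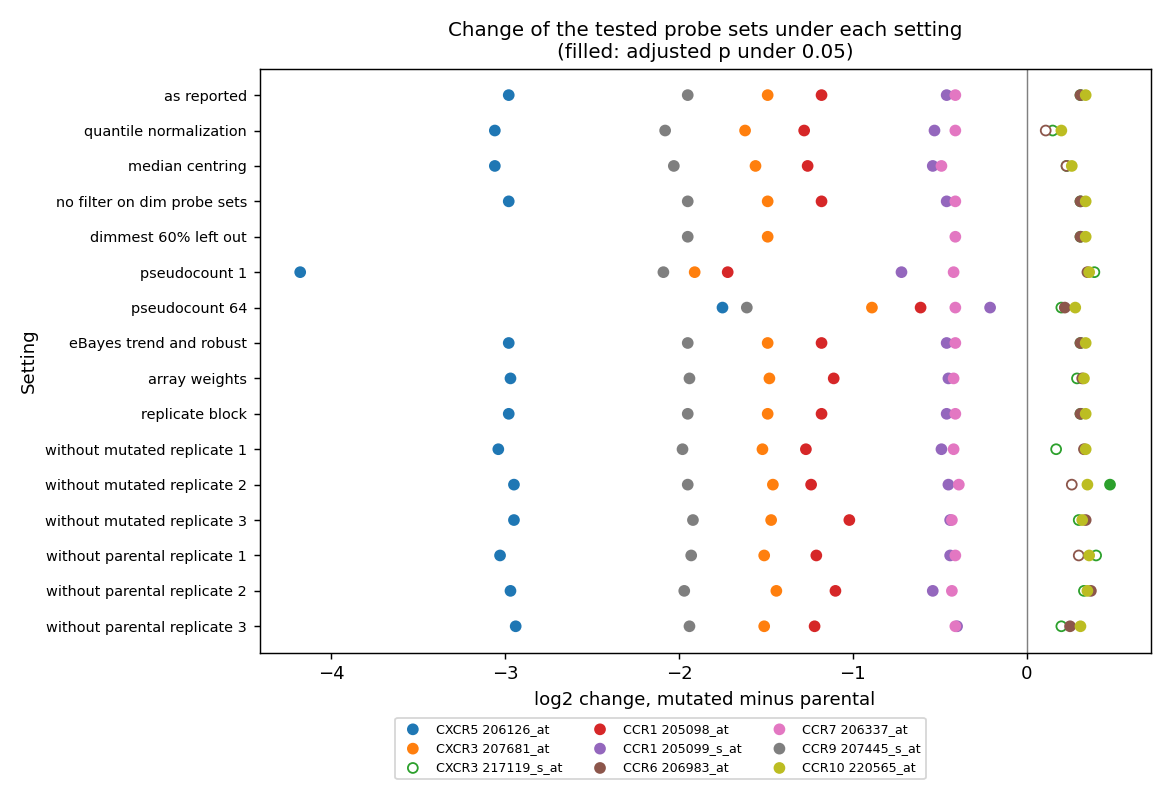
Log2 change, mutated minus parental, of the 9 tested receptor probe sets under each setting, filled where the adjusted p was under 0.05. CXCR5, CCR9, CXCR3 207681_at, both CCR1 probe sets, CCR7 and CCR10 are filled wherever they were tested, and CCR6 is open in 4 settings; CXCR5 and CCR1 have no point with the dimmest 60% left out.

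CCR2 (a receptor of CCL2), CCRL2 and CX3CR1 (the receptor of fractalkine) were dim in both groups, with single values from 1.00 to 20.7. The brighter CCR2 probe set, 206978_at, read 18.2, 14.46 and 10.34 in mutated and 20.71, 13.13 and 19.39 in parental cells. CCRL2 read 1.42, 2.92 and 7.31 in mutated and 1, 5 and 1 in parental cells. The 2 probe sets of CX3CR1 had means of 4.41 and 8.14 in mutated and 7.12 and 5.71 in parental cells. The groups overlapped on all 6 of the dim receptor probe sets and 0 passed in the limma fit without the filter, 0 of them with an unadjusted p under 0.05 (adjusted p from 0.27 for CX3CR1 to 0.68 for the second CXCR5 probe set). The intervals show what so dim a signal cannot resolve. That of CX3CR1 205898_at ran from −0.35 to 0.65 on the log2 scale, that of CCR2 206978_at from −0.47 to 0.16 and that of CCRL2 from −0.22 to 0.45.

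**Figure D3:**
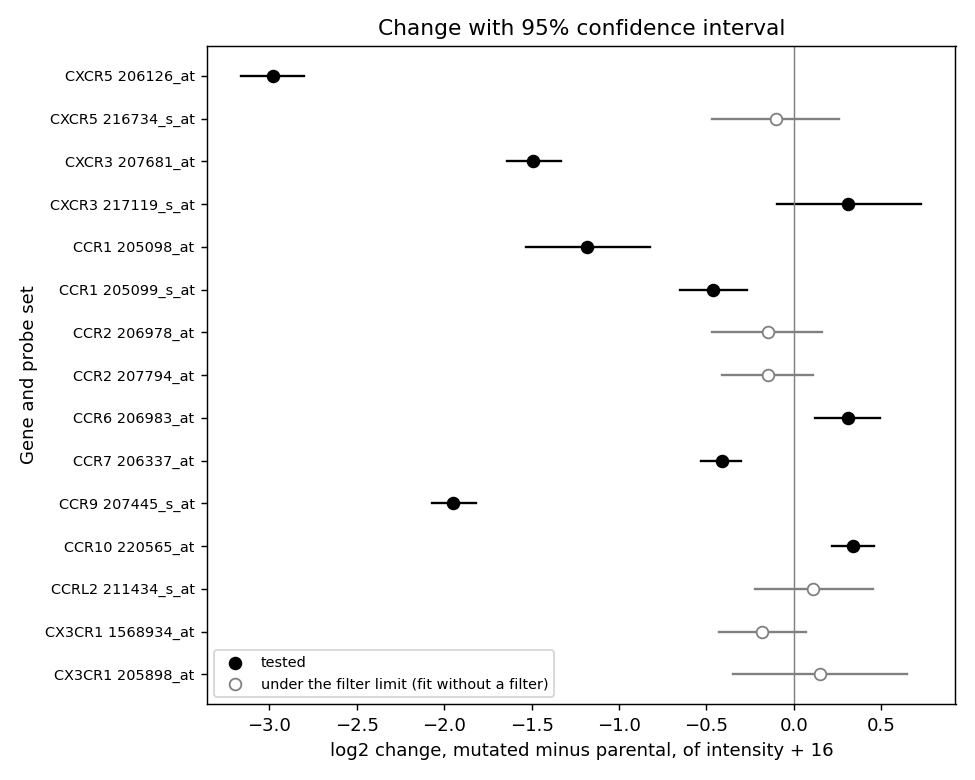
Log2 change of intensity + 16, mutated minus parental, for each of the 15 receptor probe sets, with 95% confidence intervals from limma (3 samples in each group). Filled points were tested and open points lay under the filter limit, and the intervals of CXCR3 217119_s_at and of every open point cross 0.

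Set beside all tested probe sets, the receptors spread widely. CXCR5, CCR9, CXCR3 on 207681_at and CCR1 on 205098_at lay in the outer part of the lower side, while CCR7, CCR6 and CCR10 lay where changes were frequent. Between 0.317% and 3.27% of tested probe sets changed as much as the first 4, and between 25% and 36.9% as much as the last 3. The second tested probe sets of CCR1 and CXCR3 also lay where changes were frequent. A change as large was seen in 21.1% of tested probe sets for CCR1 205099_s_at and in 35.8% for CXCR3 217119_s_at.

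**Figure D4:**
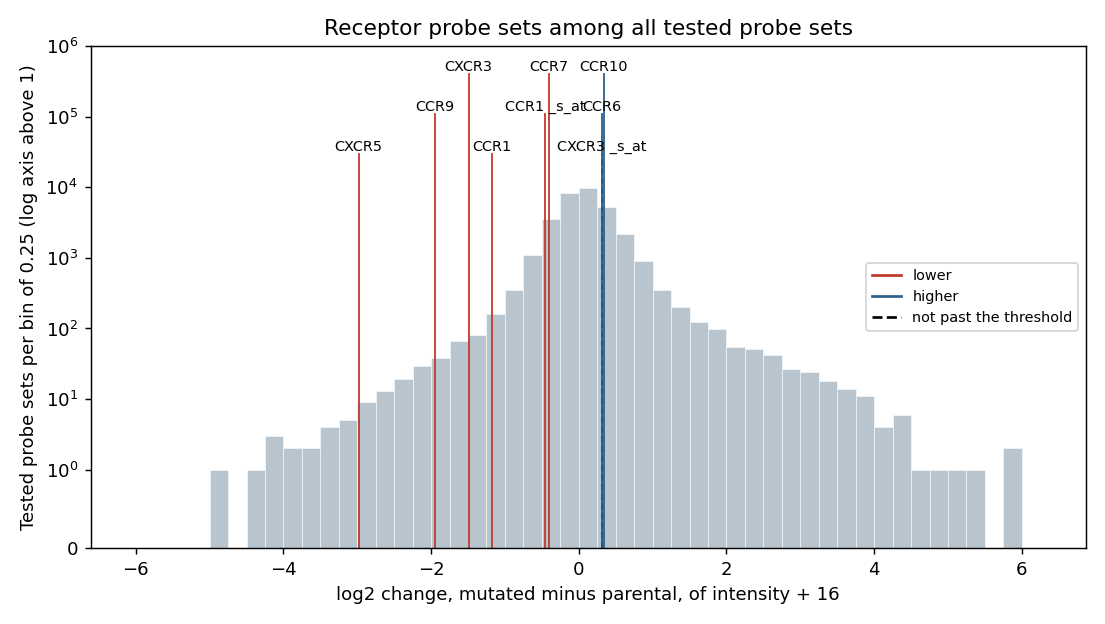
Histogram of the log2 change of all 32768 tested probe sets in bins of 0.25 (symmetric log axis), with a line at each of the 9 tested receptor probe sets. CXCR5 at −2.98 and CCR9 at −1.95 lie on the sparse lower side, and CCR6, CCR10 and CXCR3 217119_s_at lie together between 0.31 and 0.34.

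The genes next to each receptor on the chromosome were read from the order of genes in RefSeq, taking the 3 nearest tested protein-coding genes on each side. Among all 13644 tested genes 18.9% were lower and 30.1% were higher, so calls among neighbours are common. Beside CXCR5, 0 of 6 neighbours (DDX6, PHLDB1, ARCN1, BCL9L, CENATAC and RPS25) passed in limma, 0 had an unadjusted p under 0.05, and their log2 changes ran from −0.12 to 0.08. CCR9, CCR1, CCR2 and CCRL2 belong to the receptor gene cluster on chromosome 3. Within it CCR9 and CCR1 fell, while CXCR6 (46.3 ± 3.78 in mutated and 47.1 ± 1.21 in parental cells, SD, n = 3 each) and XCR1, which lie between them, gave log2 differences of −0.02 and −0.02. PRSS50, the third tested neighbour of CCR1 on its far side, was higher by a log2 change of 0.34 (limma, adjusted p = 0.041). LZTFL1, the neighbour of CCR9 on the other side, was lower in mutated cells by a log2 change of −0.68 (limma, adjusted p = 3.2e-04). Around CCR10, the neighbours CNTNAP1 (0.40) and EZH1 (0.34) were higher and TUBG1 (−0.32) was lower. Around CCR7, KRT10 (0.76) was higher and KRTAP3-2 (−0.18) lower, and the 4 other neighbours did not pass. Around CCR6, RNASET2 (0.27) and AFDN (0.14) were higher and KIF25 (−0.45) was lower. Around CXCR3, ERCC6L (0.29) was higher and OGT (−0.25) was lower.

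**Figure D5:**
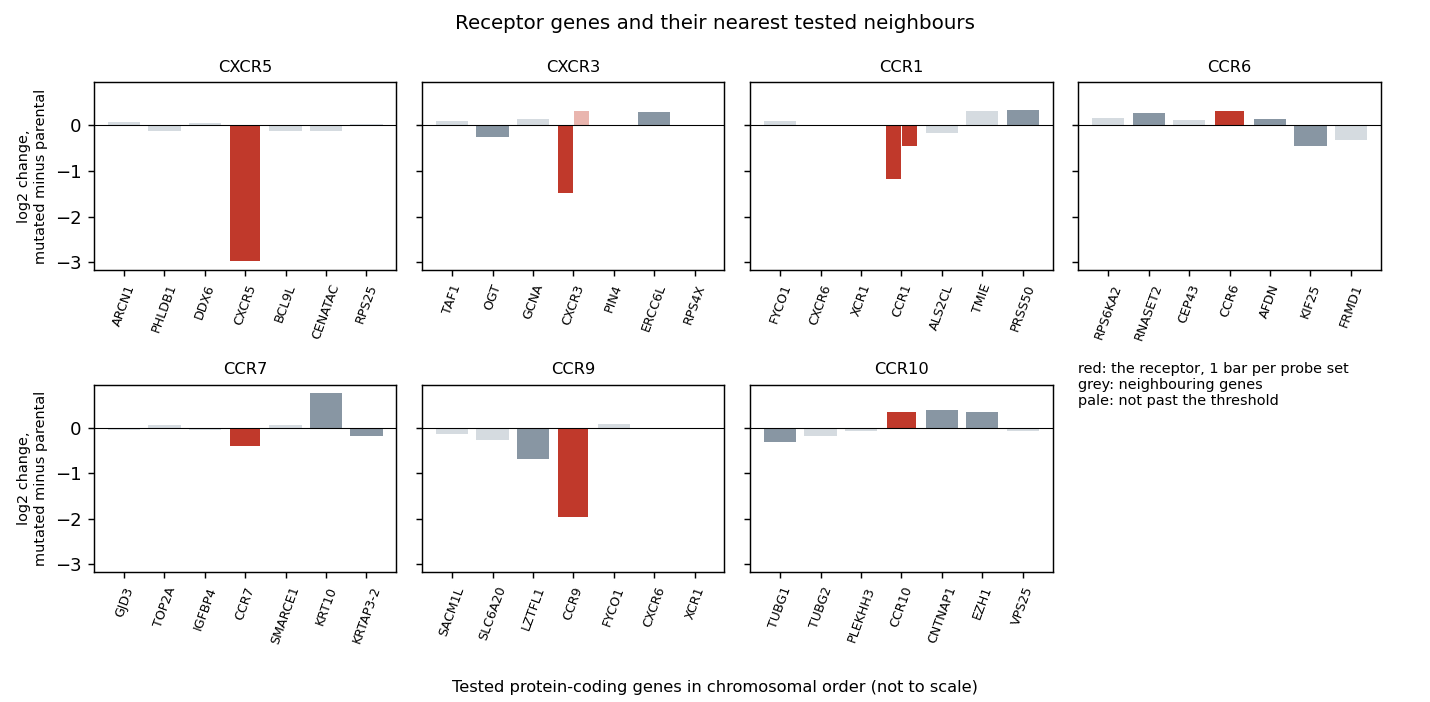
Log2 change, mutated minus parental, of the 7 receptor genes with a tested probe set (red, 1 bar for each tested probe set) and of the 3 nearest tested protein-coding genes on each side (grey), in chromosomal order and not to scale. Pale bars did not pass the threshold; the 6 neighbours of CXCR5 lie between −0.12 and 0.08.

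The windows around the annotated starts of the 4 receptor genes with a probe set that fell by a log2 value over 1 are shown because those probe sets moved the same way. Each covers 250 bases before to 50 bases after a RefSeq start on GRCh38.p14, which matched 8 of the 10 receptors by gene, with 14 windows. The spans are chr11:118893142-118893441 (plus strand) for CXCR5, chrX:71618462-71618761 (minus strand) for CXCR3, chr3:46208264-46208563 (minus strand) for CCR1, and chr3:45886293-45886592 and chr3:45893967-45894266 (plus strand) for the 2 starts of CCR9. Capitals mark matches, on either strand, to 5 motifs named in the next paragraph.
CXCR5: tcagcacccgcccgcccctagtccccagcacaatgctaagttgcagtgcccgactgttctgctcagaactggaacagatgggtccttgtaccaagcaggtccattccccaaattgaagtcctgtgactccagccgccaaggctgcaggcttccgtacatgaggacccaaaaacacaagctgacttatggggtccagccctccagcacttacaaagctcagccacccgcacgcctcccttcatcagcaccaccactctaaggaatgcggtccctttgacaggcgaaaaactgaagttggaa
CXCR3: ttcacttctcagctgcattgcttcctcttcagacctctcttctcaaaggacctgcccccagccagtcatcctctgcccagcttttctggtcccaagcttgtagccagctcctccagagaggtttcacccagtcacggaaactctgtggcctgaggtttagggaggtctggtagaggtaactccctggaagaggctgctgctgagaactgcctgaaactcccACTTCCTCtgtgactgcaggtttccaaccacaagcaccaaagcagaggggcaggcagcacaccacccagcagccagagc
CCR1: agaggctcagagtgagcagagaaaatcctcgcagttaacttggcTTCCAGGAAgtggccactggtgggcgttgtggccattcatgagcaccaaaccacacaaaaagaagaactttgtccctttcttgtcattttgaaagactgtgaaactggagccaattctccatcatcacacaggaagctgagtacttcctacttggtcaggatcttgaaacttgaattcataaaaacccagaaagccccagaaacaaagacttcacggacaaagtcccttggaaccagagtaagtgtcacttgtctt
CCR9, first start: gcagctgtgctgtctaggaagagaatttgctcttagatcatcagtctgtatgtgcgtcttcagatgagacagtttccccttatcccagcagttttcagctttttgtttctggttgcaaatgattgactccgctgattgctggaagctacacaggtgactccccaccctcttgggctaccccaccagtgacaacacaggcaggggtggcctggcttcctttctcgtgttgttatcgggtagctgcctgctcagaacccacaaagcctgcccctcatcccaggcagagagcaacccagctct
CCR9, second start: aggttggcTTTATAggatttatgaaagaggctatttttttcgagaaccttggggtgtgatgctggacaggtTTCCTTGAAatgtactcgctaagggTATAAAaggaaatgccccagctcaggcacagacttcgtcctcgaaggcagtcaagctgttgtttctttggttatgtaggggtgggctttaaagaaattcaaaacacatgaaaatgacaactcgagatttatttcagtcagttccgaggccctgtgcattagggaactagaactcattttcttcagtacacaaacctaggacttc

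The motifs were TATAAA (the TATA box), ATGCAAAT (the octamer read by POU2F1 and POU2F2), GAGGAAGT (a core of SPI1), TTCNNNGAA (a STAT element) and CACGTG (an E-box). No matches overlapped in these 5 windows. CXCR5 and the first CCR9 start held none of the 5. CXCR3 held GAGGAAGT, which 2.59% of all 35116 RefSeq windows of this length hold, and CCR1 held TTCNNNGAA, which 7.66% hold. The second CCR9 start held 2 matches to TATAAA, found in 11.5% of windows, and 1 to TTCNNNGAA. The TATAAA matches began at −242 and −154 from that start. Of all 14 receptor windows 5 held TTCNNNGAA, those of CCR6, which was higher, and CX3CR1 among them. The other motifs occur in 1.77% (ATGCAAAT) and 7.26% (CACGTG) of windows. None of the 5 was present in all of the 4 genes.

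Of 25 listed ligands of these receptors 11 were tested, each gene by its brightest tested probe set, and 3 were lower, 2 were higher and 6 did not pass, against 18.9% lower and 30.1% higher among all 13644 tested genes. Their median log2 change was −0.025, against 0.04 over all tested genes. This list and those below were chosen with earlier results of these data known, so their shares only describe the listed genes. CX3CL1, fractalkine, averaged 38.1 ± 5.55 in mutated and 388 ± 16.7 in parental cells (SD, n = 3 each), a log2 change of −2.90 (limma, adjusted p = 1.8e-06). CCL20, the ligand of CCR6, averaged 1217 ± 24.8 in mutated and 3441 ± 32.1 in parental cells (SD, n = 3 each), a log2 change of −1.49. CCL4, a chemokine related to the CCR1 ligand CCL3, was lower by a log2 change of −0.25. CXCL10, a ligand of CXCR3, averaged 99.7 ± 12.3 in mutated and 18.8 ± 3.55 in parental cells (SD, n = 3 each), a log2 change of 1.73. CCL5, a ligand of CCR1, was higher by a log2 change of 0.65.

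Of 13 other listed chemokine receptors 6 were tested, and 1 was higher, 1 was lower and 4 did not pass, against 18.9% lower and 30.1% higher among all tested genes. Their median log2 change was 0.06, against 0.04 over all tested genes. ACKR3, the scavenging receptor of CXCL12, averaged 4444 ± 207 in mutated and 3502 ± 69.0 in parental cells (SD, n = 3 each), a log2 change of 0.34 (limma, adjusted p = 0.0025), and its other tested probe set gave 0.39. CXCR4, the receptor named in the series title, was lower by a log2 change of −0.15 on its brightest probe set (adjusted p = 0.03) and by −0.57 and −0.50 on the others. That first call did not hold without the filter, with the replicate number as a block or when any 1 sample was left out. CCR8 (0.14) and ACKR2 (0.25) did not pass.

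The shared signalling apparatus of these receptors changed in both directions. Of 29 tested genes 7 were higher, 9 were lower and 13 did not pass, or 31.0% lower and 24.1% higher, against 18.9% lower and 30.1% higher among all tested genes. Their median log2 change was 0.01, against 0.04 over all tested genes. Both tyrosylprotein sulfotransferases, which add the sulfate groups that many chemokine receptors carry on their outer end, were higher. TPST1 averaged 154 ± 9.48 in mutated and 87.5 ± 4.48 in parental cells (SD, n = 3 each; log2 change 0.72), and TPST2 averaged 553 ± 8.59 in mutated and 411 ± 12.9 in parental cells (SD, n = 3 each; log2 change 0.41). GRK3, a kinase that switches off active receptors, was higher by 0.34 on its brightest probe set, while its other probe sets gave −0.02 and 0.29. RAPGEF1, an activator of the small GTPase RAP1, was lower by a log2 change of −0.68, while its other probe sets ranged from −0.56 to 0.47.

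Adhesion molecules that act beside these receptors during homing were lower in 5, higher in 3 and did not pass in 3 of 11 tested genes, or 45.5% lower and 27.3% higher, against 18.9% lower and 30.1% higher among all tested genes. Their median log2 change was 0.04, as over all tested genes. ITGA4 and ITGB7 form the integrin that works with CCR9 in gut homing. ITGA4 averaged 730 ± 30.8 in mutated and 1272 ± 37.2 in parental cells (SD, n = 3 each), a log2 change of −0.79 (limma, adjusted p = 6.9e-05), and its other 3 probe sets ranged from −0.86 to −0.13. ITGB7 averaged 1062 ± 15.2 in mutated and 1331 ± 42.2 in parental cells (SD, n = 3 each), a log2 change of −0.32 (adjusted p = 0.002 with limma). ITGAL, the alpha chain of LFA-1, was lower by a log2 change of −1.68, and CD44 (−0.83) and ICAM1 (−0.44) were lower as well. CD44 has 11 other tested probe sets, which ranged from −0.60 to 0.22. ITGAE (0.61), whose product binds E-cadherin on epithelium, ICAM2 (0.49) and ITGB1 (0.41) were higher.

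Of 16 tested transcription factors of B cell development and positioning, 8 were lower, 1 was higher and 7 did not pass, or 50% lower and 6.25% higher, against 18.9% lower and 30.1% higher among all tested genes. Their median log2 change was −0.17, against 0.04 over all tested genes. The list was chosen with earlier results known, and the background share depends on the scaling. With quantile normalization 3493 of all tested genes were lower, against 2574 as reported. KLF2, a regulator of lymphocyte traffic, averaged 168 ± 21.8 in mutated and 568 ± 18.6 in parental cells (SD, n = 3 each), a log2 change of −1.67 (limma, adjusted p = 2.8e-05). PRDM1, the regulator of plasma cell differentiation, was lower by a log2 change of −1.59 (−0.96 and −0.50 on its other probe sets). FOXO1 was lower by −0.81 (−1.12 and −0.01 on its other probe sets) and POU2AF1, the B cell coactivator of octamer factors, by −0.30. The factor that was higher was RARA, a retinoic acid receptor, at 0.22 (adjusted p = 0.046 with limma). Retinoic acid is known to raise CCR9 on lymphocytes. No retinoic acid was measured here, and a link between RARA and CCR9 was not tested. With quantile normalization or median centring no factor of this list was higher, and RARA did not pass.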

How the data were processed

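Total RNA of 3 mutated and 3 parental BCWM1 samples was copied into biotin-labelled cRNA, per the labels' protocols, and read on arrays. The deposited values are the authors' intensity for each of 54613 probe sets, on a linear scale. No label or header states how they were summarised or normalized, and no detection calls were used. With 6 arrays the precision is limited. Groups came from the sample titles. Of the probe sets, 41091 have 1 gene symbol in the platform annotation, 1801 several and 11721 none; 41037 matched RefSeq by Entrez ID and 0 symbols changed.

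Values were taken as log2(intensity + 16), the dimmest 40% by mean were left out, and 32768 were fitted with limma 3.58.1 in R 4.3.3 (lmFit and eBayes, two-sided, group as the only term), with Benjamini-Hochberg adjustment over all of them. A gene in a list was represented by whichever of its tested probe sets averaged highest on the log2 scale (its brightest). Named were all receptor probe sets, up to 4 genes of each list with the smallest adjusted p and, where 5 or fewer moved one way, all of those. The members and lists were chosen with earlier results of these data known. Neighbouring genes and promoter windows with motif counts were added after the data were seen. Alternatives were 2 scalings, 2 filters, 2 pseudocounts, eBayes options, array weights, a replicate block, each sample left out, the mean over tested probe sets of a gene, and dropping probe sets whose names end in _s_at or _x_at. Exact permutation tests used scipy 1.17.1. Python 3.11.15 and matplotlib 3.10.9 drew the figures.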

Additional observations from a re-analysis of the deposited data

How the results depend on the processing

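The log2 changes of all 9 tested receptor probe sets kept their sign in every setting in which the probe set was tested. CXCR5 206126_at, CXCR3 207681_at, both CCR1 probe sets, CCR7, CCR9 and CCR10 also kept their call. CCR6 lost it with quantile normalization (0.11), with median centring (0.23) and without mutated replicate 2 or parental replicate 1, and leaving out 1 sample gave 0.25 to 0.37. CXCR3 217119_s_at ranged from 0.17 to 0.48 when 1 sample was left out and passed only without mutated replicate 2 (limma, adjusted p = 0.042). With the dimmest 60% left out, CXCR5 and CCR1 were not tested, so that 3 receptor probe sets and 2 genes were lower.

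With quantile normalization and with median centring 1 receptor probe set and 1 receptor gene were higher, against 2 of each as reported. Leaving out 1 sample gave 1 to 2 of each. The share of all calls that were higher was 65.1% as reported, 50% after quantile normalization and 50.7% after median centring. With quantile normalization 7784 of all tested probe sets were lower and 7776 higher, against 5433 and 10120 as reported. The background shares given beside the receptors therefore depend on the scaling. Among ligands, 5 were higher without the filter, 1 with the dimmest 60% left out and 2 to 4 when 1 sample was left out. Among other receptors, 0 were lower without the filter, with the replicate block or when any 1 sample was left out (limma; 1 at an unadjusted p under 0.05 in each), and 1 to 2 were higher when 1 sample was left out. Among transcription factors, 0 were higher with either scaling, without the filter, with a pseudocount of 1, with the replicate block and without the suffixes _s_at and _x_at, and 0 to 1 when 1 sample was left out (limma; 0 or 1 at an unadjusted p under 0.05 in each). Without those suffixes 5 were lower. The cause of these shifts was not tested.

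The replicate numbers do not pair the samples by the labels. Deviations from the group means correlated by 0.11, 0.03 and 0.11 between samples of the same number, and each sample correlated best with its own number, which is a hint from the data only. With the replicate block 9685 probe sets were higher and 5212 lower, against 10120 and 5433, and every receptor probe set kept its call. Signal limits the receptor probe sets under an intensity of 18.0, on which no difference passed.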
